A study of Mus musculus with 6 samples.

Results

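The genes described here make cholesterol and fatty acids. They were 31 genes listed by symbol: 21 of the sterol route, which runs from acetyl-CoA through mevalonate and squalene to cholesterol, with its regulators, and 10 of the route that builds, elongates and desaturates fatty acids. A gene was measured by the brightest probe set that the platform annotation ties to its symbol alone, and 30 of the 31 had such a probe set, out of 19938 genes in all. Acat2 had none and was not analysed here. Transcript levels came from 6 Affymetrix arrays of URE cells, a mouse leukaemia line. The line is known, from outside the labels, to come from mice that lack an upstream regulatory element of Spi1, the gene of the transcription factor PU.1, so both groups share that deletion. The 3 shControl arrays are from cells transduced with a lentivirus that carries a hairpin against luciferase, and the 3 shHLX arrays are from cells with a hairpin against Hlx, a homeobox gene. Both groups were sorted for the green fluorescent protein of the vector and grown in medium with fetal bovine serum, and the sources used here give neither the number of hairpin sequences against Hlx nor whether replicates were separate transductions. The p-values therefore speak of the spread between these 6 arrays, which may be technical.

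Cholesterol synthesis is governed by SREBP2, the product of Srebf2, a transcription factor that is held in the endoplasmic reticulum by SCAP and the INSIG proteins while sterol is plentiful and that switches on most enzymes of the pathway when sterol is short. SREBP1, the product of Srebf1, does the like mainly for fatty acid synthesis, and its gene is itself switched on by LXR, a nuclear receptor for oxidised sterols. Dividing blood cells need both lipids for new membrane and can also take cholesterol from serum lipoproteins.

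Values are log2 signals, so a difference of 1 is a doubling. They serve to compare arrays within a gene and not genes with each other, and which dim probe sets lie above background is unknown here. Hlx itself gave 10.21, 10.12 and 10.20 on the shControl arrays and 10.08, 10.06 and 10.17 on the shHLX arrays, a difference of -0.07 (SE 0.05, limma adjusted p = 0.479), with overlapping groups. The arrays thus do not show the knockdown, and the direction of each comparison rests on the labels. Among 11 markers of myeloid progenitors, Elane lay between 13.94 and 14.04 and Spi1 between 10.28 and 10.42 over the 6 arrays, while Ptprc, the gene of the general leukocyte marker CD45, lay between 5.93 and 6.14, Cd34 between 5.86 and 6.15 and Csf1r between 6.19 and 6.43. On the shHLX arrays 3 of the 11 were called, 27.3% against 6.18% of all genes: Kit (-0.73, limma adjusted p = 6.37e-05) and Mpo (-1.46, 0.00151) fell and Itgam rose 1.68-fold (0.000615), while the other 8 were not called. In bulk samples a change in the share of cells at a given stage and a change in RNA per cell cannot be told apart, and the part of these marker changes in the results on lipid genes was not tested. No marker was called among 5 of adipocytes, 5 of hepatocytes, 6 of stroma, 3 of erythroid and 4 of lymphoid cells, whose differences ran from -0.20 to 0.07.

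On the arrays labelled shHLX, 2 of the 30 lipid synthesis genes rose and 3 fell. Elovl6, which encodes the elongase that lengthens palmitate-type fatty acids, rose 1.86-fold, and Hmgcs1, which encodes the synthase that makes HMG-CoA ahead of mevalonate, rose 1.36-fold. The malic enzyme gene Me1 fell to 68.1% of control, Tm7sf2, which encodes a sterol reductase, to 68.2%, and the desaturase gene Scd2 to 74.2%. The other 25 genes were not called, with differences between -0.18 and 0.19. A gene was called at a Benjamini-Hochberg adjusted p under 0.05 in limma over all 19938 genes. That rule called 16.7% of the lipid synthesis genes and 6.18% of all genes. For rises alone it called 3.75% of all genes, and for falls 2.43%. The 6.18% counts dim genes too, here and for the other lists, while 28 of the 30 genes lay above the median signal. When only genes above that median were tested, 5 of the 28 rose and 3 fell, and 2064 of all 9969 were called. The median difference was 0.01 for the 30 genes and -0.01 for all genes. Their median difference regardless of sign was 0.09, against 0.07 for all genes. At an unadjusted p under 0.05 there were 10 of the 30 genes, against 19.4% of all genes.

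**Figure D1:**
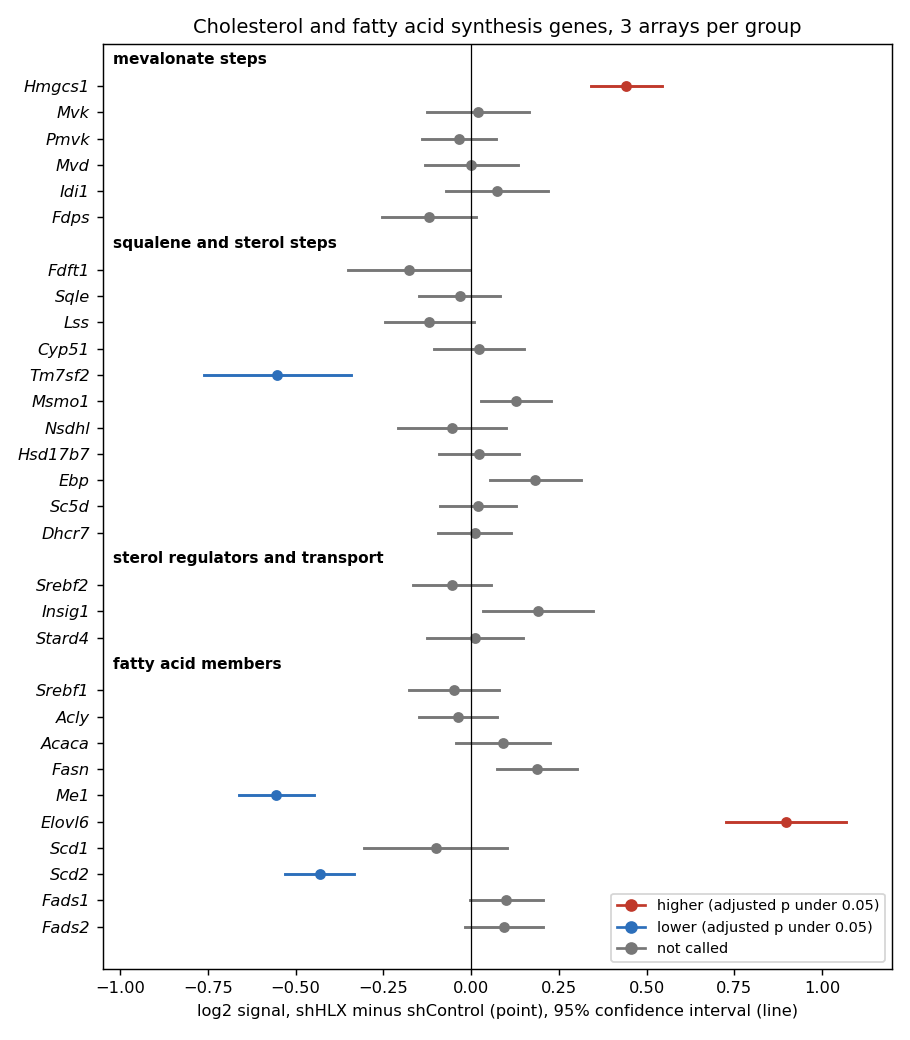
Difference in log2 signal, shHLX minus shControl, of each of the 30 measured genes (point) with limma's 95% confidence interval (line), in blocks by role and coloured by call, from 3 arrays per group. Hmgcs1 and Elovl6 stand to the right of 0, Tm7sf2, Me1 and Scd2 to the left, and the other 25 lie between -0.18 and 0.19.

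The early part of the sterol route turns acetyl-CoA into mevalonate and then into the isoprenoid farnesyl diphosphate. Of its 6 measured genes, Hmgcs1 was the only one called, or 16.7%, against 6.18% of all genes. Hmgcs1 (probe set 10412466) read 10.53, 10.53 and 10.53 on the shControl arrays and 10.93, 10.96 and 11.02 on the shHLX arrays. The groups were far apart for the size of their spread, with the control arrays nearly identical. The signal rose 1.36-fold (limma adjusted p = 0.000853, 95% confidence interval 1.27 to 1.46), and the adjusted p stayed between 0.00296 and 0.00755 whichever array was left out. The genes of the next 3 enzymes, which phosphorylate and decarboxylate mevalonate, differed by 0.02 for Mvk, -0.03 for Pmvk and 0.00 for Mvd. Their 95% confidence intervals kept each difference between -0.14 and 0.17. Idi1, the gene of the isomerase that readies the isoprenoid unit, differed by 0.07, and its other probe set by 0.03. Fdps, the gene of farnesyl diphosphate synthase, differed by -0.12 (SE 0.06). The control arrays of Fdps spread from 10.90 to 11.09 and overlapped the shHLX arrays, at 10.85 to 10.91.

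In the later part, squalene is formed, closed into lanosterol and trimmed to cholesterol. Of its 11 genes, Tm7sf2 fell and 10 were not called, so that 9.09% were called, against 6.18% of all genes. Tm7sf2 (probe set 10465342) encodes the reductase that follows the demethylation by the Cyp51 product. It read 9.27, 9.17 and 9.47 with the control hairpin and 8.69, 8.89 and 8.67 on the shHLX arrays. All 3 shHLX arrays lay below all 3 controls, though both groups spread more than those of Hmgcs1 (SD 0.149 and 0.124, n = 3 each). The signal fell to 68.2% of control (95% confidence interval 59.1% to 78.8%, limma adjusted p = 0.0101). The call was lost without shHLX 1 (adjusted p = 0.0539) and without variance moderation (adjusted p = 0.101). Lbr, a gene of the nuclear envelope whose protein carries the same reductase activity, differed by 0.08 (SE 0.06, limma adjusted p = 0.502), with overlapping groups.

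The other genes of this part moved little and in both directions. The squalene synthase gene Fdft1 read 9.61, 9.40 and 9.36 against 9.20, 9.35 and 9.28. Its groups did not overlap, but the difference of -0.18 was not called (limma adjusted p = 0.247), and its other probe set gave -0.14. The lanosterol synthase gene Lss differed by -0.12 (adjusted p = 0.286), also without overlap. Ebp, the gene of an isomerase of the sterol ring, read 9.72, 9.71 and 9.79 against 9.83, 10.00 and 9.94. This difference of 0.18 was not called (limma adjusted p = 0.118). Msmo1, the gene of a methyl sterol oxidase, differed by 0.13 (adjusted p = 0.155), with all shHLX arrays above the controls. Ebp was called when the variance model held an intensity trend (adjusted p = 0.0197), and both Ebp (0.0317) and Msmo1 (0.0386) were called when only genes above the median signal were tested. The squalene epoxidase gene Sqle (-0.03), the lanosterol demethylase gene Cyp51 (0.02), Nsdhl (-0.05) and Hsd17b7 (0.02), whose products help to remove methyl groups, and the late genes Sc5d (0.02) and Dhcr7 (0.01) all had overlapping groups. Sqle, often used as a readout of SREBP2, had a 95% confidence interval of 90.3% to 106% of control.

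The regulators of the sterol route were not called. Srebf2 read 11.25, 11.35 and 11.28 on the shControl arrays and 11.20, 11.25 and 11.28 on the shHLX arrays, a difference of -0.05 with overlapping groups. Insig1, which encodes a retention protein for SCAP and is itself a target of SREBP, read 9.87, 9.85 and 9.69 against 10.00, 10.08 and 9.90. The groups of Insig1 did not overlap, and the difference of 0.19 was not called (limma adjusted p = 0.171), except when the variance model held an intensity trend (adjusted p = 0.036). Stard4, the gene of a carrier that moves cholesterol between membranes, differed by 0.01.

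**Figure D2:**
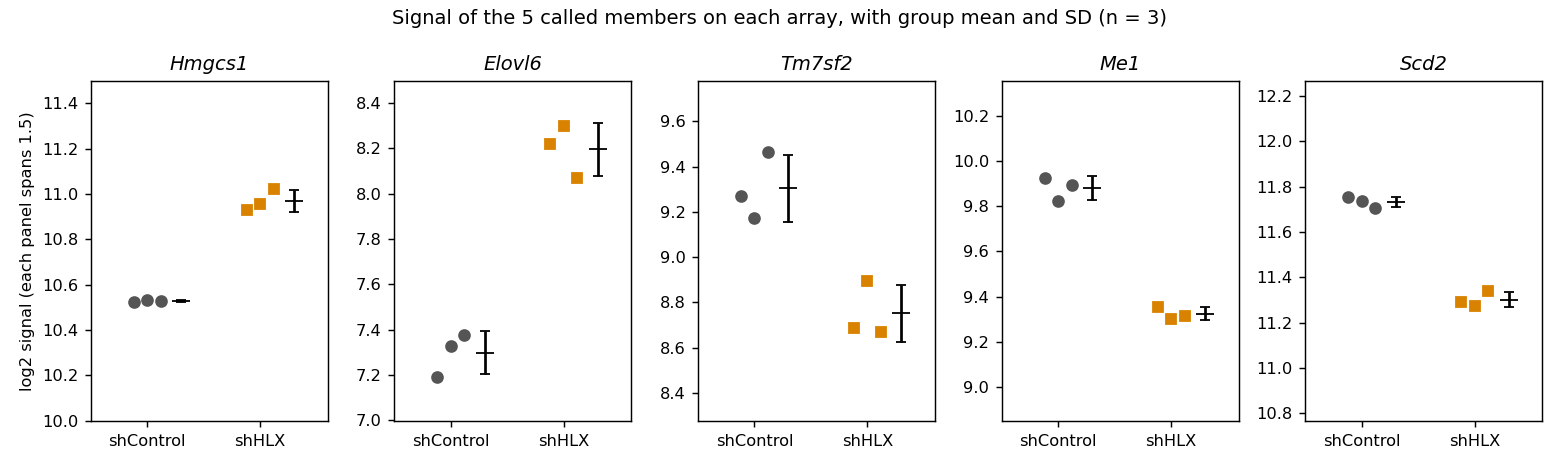
Log2 signal of the 5 called genes on each array (circles shControl, squares shHLX, drawn in the order of replicates 1 to 3), with the group mean and SD beside the points (n = 3); each panel spans the same range of 1.5. The groups do not overlap in any panel, and Tm7sf2 shows the widest spread among control arrays, from 9.17 to 9.47.

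Among the 10 fatty acid genes, 1 rose, 2 fell and 7 were not called. The share called was 30%, against 6.18% of all genes. Elovl6 (probe set 10495993), the elongase gene, read 7.19, 7.33 and 7.38 on the shControl arrays and 8.22, 8.30 and 8.07 on the shHLX arrays. No array of either group came near the other group. The rise was 1.86-fold (limma adjusted p = 0.000323, 95% confidence interval 1.65 to 2.10). Among the 30 genes it was the largest change and the only called one of at least 1.5-fold, a rule that 1.3% of all genes met.

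Me1 (probe set 10595480) encodes the cytosolic malic enzyme, which supplies NADPH for fatty acid synthesis. It read 9.92, 9.82 and 9.89 with the control hairpin and 9.36, 9.30 and 9.31 on the shHLX arrays, again well apart. The signal fell to 68.1% of control (95% confidence interval 63.2% to 73.3%, limma adjusted p = 0.000341). The other probe set of Me1 gave a difference of -0.59, close to the -0.56 of the brighter one.

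Scd2 (probe set 10463355) encodes a stearoyl-CoA desaturase, which puts a double bond into saturated fatty acids. It read 11.75, 11.73 and 11.71 on the shControl arrays and 11.29, 11.27 and 11.34 on the shHLX arrays. The arrays within a group differed by less than 0.1, and the fall was to 74.2% of control (95% confidence interval 69.3% to 79.4%, limma adjusted p = 0.000821). Scd2 lies in a row of related genes with Scd3, Scd4 and Scd1 in the RefSeq order of genes. The 3 relatives were not called, with differences of -0.10 for Scd1 (adjusted p = 0.582), -0.02 for Scd3 and 0.05 for Scd4. Scd1 read 5.14 to 5.41 with the control hairpin and 5.09 to 5.30 with the Hlx hairpin, so its groups overlapped. These genes are close copies, and how far their probes share signal was not tested.

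The enzymes that supply and join the carbon units showed smaller differences. Fasn, the gene of fatty acid synthase, read 11.39, 11.45 and 11.33 against 11.58, 11.54 and 11.61. All shHLX arrays of Fasn lay above the controls, yet the 1.14-fold difference (95% confidence interval 1.05 to 1.23) just missed the threshold (limma adjusted p = 0.0717). It was called with an intensity trend (adjusted p = 0.00223), with array weights (0.028), and when dim genes, those in the lowest 25% (0.0416) or below the median (0.0149), were left out. Acly, whose product makes acetyl-CoA from citrate, differed by -0.04, and Acaca, whose product makes malonyl-CoA, by 0.09, with 0.12 from its other probe set. Srebf1 read 9.70, 9.85 and 9.71 against 9.70, 9.75 and 9.66, a difference of -0.05 with overlapping groups. Fads1 and Fads2, neighbouring genes of the desaturases that make polyunsaturated fatty acids, differed by 0.10 and 0.09. Neither was called (limma adjusted p = 0.279 and 0.345), though in both the shHLX arrays lay above the controls. Fads3, the next gene in that row, differed by 0.02 and overlapped.

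**Figure D3:**
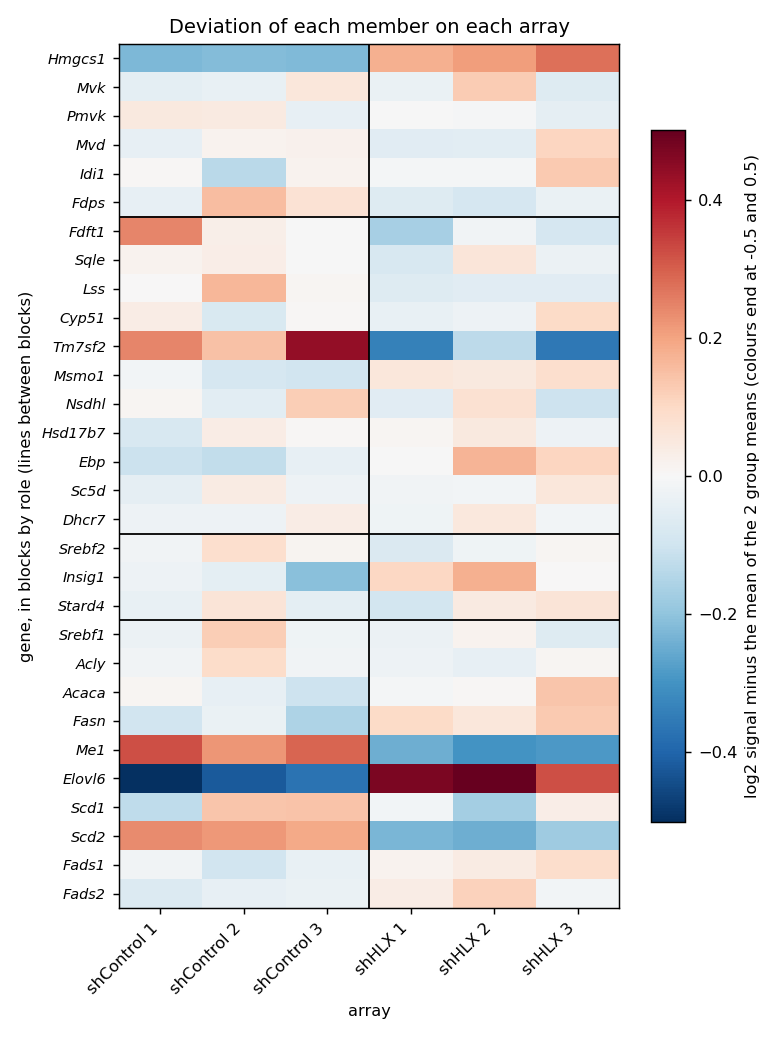
Log2 signal of each of the 30 genes (rows, in blocks by role) on each array (columns) minus the mean of its 2 group means; red is above and blue below, and colours end at -0.5 and 0.5. Hmgcs1 and Elovl6 turn from blue to red between the groups, Tm7sf2, Me1 and Scd2 from red to blue, and most other rows stay pale.

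Counted by array rather than by test, 13 of the 30 genes had groups that did not overlap (43.3%), 8 with the shHLX arrays above and 5 below. Over all genes 26.2% did not overlap, 14.7% above and 11.4% below. For 20 of the 25 uncalled genes the 95% confidence interval lay within 0.3 of 0 on the log2 scale. Over all 25 the intervals reached down to 78.4% of control and up to 1.27-fold at their ends, for Fdft1 and Insig1. The median deviation of the 20 sterol genes from their own group mean ran from -0.04 on shHLX 1 to 0.02 on shHLX 2, and that of the 10 fatty acid genes from -0.02 on shHLX 2 to 0.03 on shHLX 3. Over all genes these medians ran from -0.02 to 0.03.

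Hmgcs1 and Tm7sf2 belong to the same route and moved in opposite directions, so the DNA before their starts is shown together with that of Elovl6, the gene with the largest change. RefSeq windows (build GRCm38.p6) were matched by symbol for 24 of the 31 genes. The stretches below are the 250 bases before the start, 5′ to 3′ on the strand of the gene. Capitals mark 3 motifs searched on both strands: TCACNCCAC, a form of the sterol regulatory element that SREBP binds, the E-box CACGTG, and CCAAT, the box bound by NF-Y, a usual partner of SREBP, which reads ATTGG on the opposite strand. The Hmgcs1 stretch is chr13:119690101-119690350 on the plus strand, that of Tm7sf2 is chr19:6067851-6068100 on the minus strand, and that of Elovl6 is chr3:129532136-129532385 on the plus strand.
Hmgcs1: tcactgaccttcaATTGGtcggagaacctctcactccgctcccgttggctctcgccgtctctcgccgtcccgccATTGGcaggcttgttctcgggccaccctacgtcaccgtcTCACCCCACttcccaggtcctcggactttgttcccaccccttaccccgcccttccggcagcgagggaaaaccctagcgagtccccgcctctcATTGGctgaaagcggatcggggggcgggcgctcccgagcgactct
Tm7sf2: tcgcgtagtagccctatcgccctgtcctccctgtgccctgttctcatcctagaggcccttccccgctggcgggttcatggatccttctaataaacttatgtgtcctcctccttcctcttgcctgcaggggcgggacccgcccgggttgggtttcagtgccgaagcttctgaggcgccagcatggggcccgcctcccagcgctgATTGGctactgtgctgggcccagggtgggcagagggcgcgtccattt
Elovl6: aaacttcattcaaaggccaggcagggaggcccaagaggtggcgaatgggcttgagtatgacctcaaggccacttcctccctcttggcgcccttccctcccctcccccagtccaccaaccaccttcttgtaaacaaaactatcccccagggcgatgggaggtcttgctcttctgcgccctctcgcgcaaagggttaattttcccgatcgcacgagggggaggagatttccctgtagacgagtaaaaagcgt

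The Hmgcs1 stretch held 1 TCACNCCAC, 137 to 129 bases before the start, and 3 CCAAT boxes. The Tm7sf2 stretch held a single CCAAT box, 47 to 43 bases before the start, a place close to that of the nearest box in Hmgcs1, 45 to 41 bases before. None of the 3 motifs was in the Elovl6 stretch. In the whole windows, which run 50 bases past the start, CCAAT was found for 20 of the 24 genes (83.3%), against 41.7% of the 15614 tested genes with a window. It was found for 3 of the 4 called genes with a window and for 17 of the 20 uncalled ones. The called gene Scd2 had no window. The 24 genes had 30 windows, and a gene counted if any of its windows held the motif. Me1 had 2 windows, and in the 250 bases before the start only the second held the box. TCACNCCAC was found for Hmgcs1 alone (1.4% of tested genes), and the overlapping shorter form TCACCCCA for Hmgcs1 and Srebf2 (1.71%). CACGTG was found for Hsd17b7, Sc5d, Dhcr7 and Insig1 (9.5% of tested genes), none of them called. TCACNTGA, a further form of the E-box, was found for none of the 24, against 4.66% of tested genes. A match is a run of letters and not a shown binding site. The lack of a match does not show that a site is absent, as only these forms in these windows were searched.

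Genes around these routes were read from 4 further lists. Of 16 sterol neighbours, which process SREBP, hold it back or make related products, 9 were measured. Of these Insig2 rose and 8 were not called, so that 11.1% were called, against 6.18% of all genes. Insig2, the partner of Insig1 in holding SCAP, read 9.33, 9.31 and 9.32 against 9.53, 9.47 and 9.57. The groups did not overlap, but the 1.15-fold rise (limma adjusted p = 0.0365) was lost without any array but shHLX 2 (adjusted p up to 0.134), after a second quantile normalization (0.0564), without variance moderation (0.0544) and with the replicate number as a block (0.102). Scap differed by -0.06.

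Of 17 genes of sterol uptake, storage and export 15 were measured, and 2 rose and 2 fell, or 26.7%, against 6.18% of all genes called. Abcg1, a cholesterol exporter gene switched on by LXR, read 8.30, 8.37 and 8.35 with the control hairpin and 7.74, 7.66 and 7.61 on the shHLX arrays. The groups lay well apart, and the signal fell to 62.7% of control (95% confidence interval 57.9% to 67.9%, limma adjusted p = 0.000188). Mylip, another LXR target, whose product marks lipoprotein receptors for breakdown, fell by 0.24 on the log2 scale (adjusted p = 0.0401). The Mylip call was lost without any array but shControl 2 (up to 0.155), with each array centred on its median (0.0674), without moderation (0.113) and with the replicate block (0.12). Abca1, a further LXR target, read 6.33 to 6.46 in the controls and 6.32 to 6.45 on the shHLX arrays and was not called (difference -0.04). Nr1h3, the gene of LXR alpha, differed by -0.15 (adjusted p = 0.131). The lipoprotein receptor gene Lrp1 rose 1.22-fold (adjusted p = 0.00831). Lipa, which encodes the lysosomal lipase that frees cholesterol from its esters, rose 1.23-fold (adjusted p = 0.00873), a call lost without shControl 3 (0.0507).

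Of 35 fatty acid neighbours 32 were measured, and 4 rose and 3 fell, or 21.9%, against 6.18% of all genes called. Of the 7 measured Elovl elongase genes, Elovl6 included and read together after their values were seen, 3 rose and 0 fell, where 3.75% of all genes rose. Elovl7 read 6.63, 6.38 and 6.44 with the control hairpin and 7.12, 7.26 and 7.45 on the shHLX arrays, and Elovl4 read 6.37, 6.34 and 6.46 against 7.07, 6.88 and 6.89. Neither pair of groups overlapped, and the rises were 1.73-fold for Elovl7 (limma adjusted p = 0.00241) and 1.47-fold for Elovl4 (adjusted p = 0.00206). Both genes lay below the median signal of all genes, and whether they lie above background is unknown here. Elovl7 was lost without variance moderation (adjusted p = 0.0581). The other elongase genes were not called, with differences of 0.12 for Elovl1, -0.04 for Elovl2, -0.14 for Elovl3 and -0.11 for Elovl5. Gpam, the gene of the acyltransferase that starts glycerolipid synthesis, rose 1.29-fold (adjusted p = 0.00213), and Dgat1, the gene of an enzyme that completes triglyceride, rose 1.22-fold (adjusted p = 0.00558). Dgat2, which does the same step, differed by 0.15 and was not called (adjusted p = 0.0639). Thrsp, a gene that accompanies fatty acid synthesis, fell by 0.34 on the log2 scale (adjusted p = 0.00455). Acacb, the gene of the mitochondrial acetyl-CoA carboxylase, fell by 0.26 (adjusted p = 0.0211), and the phosphatidate phosphatase gene Lpin1 fell by 0.22 (adjusted p = 0.0275). Acacb was lost without any array but shControl 3 (up to 0.0806), without variance moderation (0.0705) and with the replicate block (0.0673), and Lpin1 without any array but shHLX 3 (up to 0.122) and with the replicate block (0.0811).

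The list of fatty acid oxidation, the breakdown of fatty acids, also took in some uptake and control genes. It held 1 called gene among 22 measured of 23. Acadl, the gene of the long-chain acyl-CoA dehydrogenase, read 11.00, 10.94 and 10.95 with the control hairpin and 10.60, 10.63 and 10.62 on the shHLX arrays. It fell by 0.35 on the log2 scale without overlap (limma adjusted p = 0.00239). The share called in this list was 4.55%, against 6.18% of all genes.

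**Figure D4:**
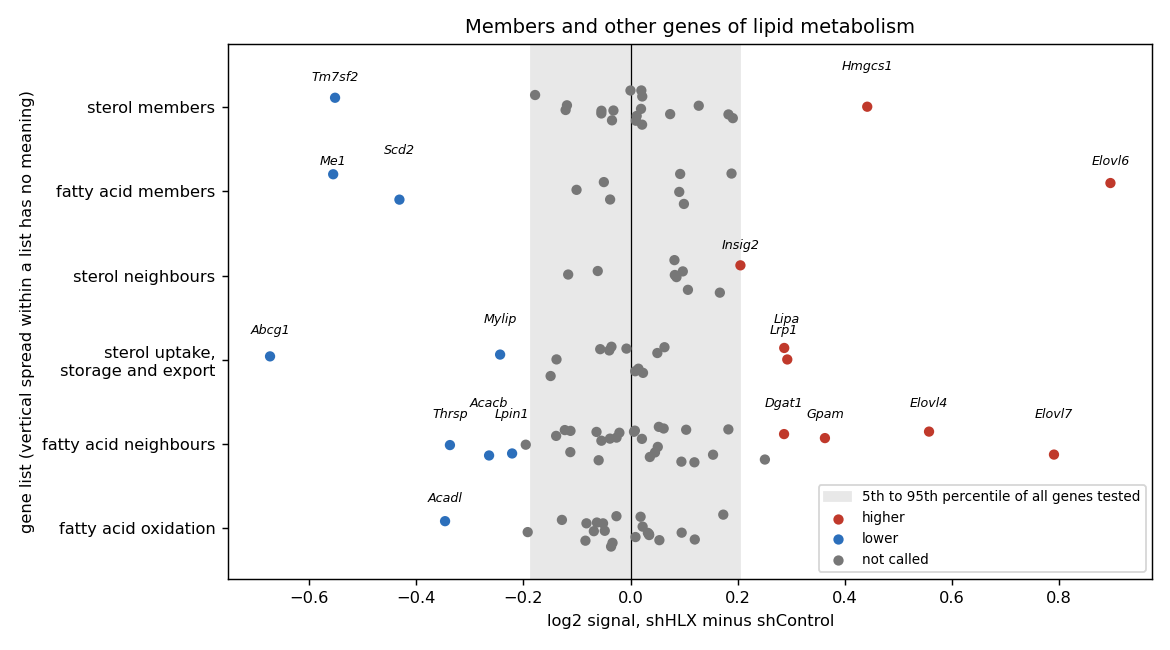
Difference in log2 signal, shHLX minus shControl, of each measured gene in the 20 sterol and 10 fatty acid synthesis genes and in 4 further lists of lipid genes, coloured by call and named where called; the grey band spans the 5th to 95th percentile of all genes tested, -0.19 to 0.21. Called genes lie on both sides of 0 in the synthesis lists, in sterol uptake and in the fatty acid neighbours.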

How the data were processed

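The authors deposited log2 signals per probe set, 1 column per array. Affymetrix Power Tools 1.178 and RMA, a method that corrects background, equalises array distributions and summarises probes, are credited to the submitters' processing notes. No source used here gives the genome build. Per the labels, 10 ng of RNA was amplified per array. The platform annotation gave 1 symbol to 21789 of the 35556 probe sets and several to 1621, and did not list 12146. The brightest probe set per symbol gave 19938 genes, with no filter on dim signal. Entrez identifiers matched the RefSeq gene table for all 30 measured genes.

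The test was limma's moderated one (version 3.58.1, R 4.3.3, two-sided, no covariates), with Benjamini-Hochberg adjustment over all genes at 0.05, and checked on simulated data. The number of arrays limits the precision. The replicate numbers did not pair the arrays (correlations of deviations -0.17, 0.129 and -0.152). Between arrays of different numbers the correlations ran from -0.25 to 0.344, the highest for shControl 1 with shHLX 3. Another pairing was not tested. The synthesis genes, the further lists and the tests were chosen with earlier results of these arrays known, and the motifs after the values were seen. Named genes were all measured members, every called gene of a further list (Acadl and others), and Hlx; other genes named, such as Lbr, Abca1, Nr1h3, Scap and Dgat2, were picked with their values known. Alternatives tried were 2 other scalings, 2 signal filters, 3 variance settings (an intensity trend, a robust prior, no moderation), array weights, 2 ways to treat several probe sets, 2 thresholds, the replicate block, and each array left out. Figures used matplotlib 3.10.9 in Python 3.11.15.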

Additional observations from a re-analysis of the deposited data

How the results depend on the processing

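Leaving out each array in turn gave 2 higher synthesis genes each time and 2 to 3 lower ones, Tm7sf2 being the one lost without shHLX 1. With the replicate number as a block the counts were 2 higher and 3 lower, as without it; the block ended the calls of Insig2, Mylip, Acacb and Lpin1 given above and no other call among the 44 named genes. The higher count rose to 5 when the variance model held an intensity trend. It was also 5 among genes above the median signal, where 28 of the 30 genes were tested. Calls over all genes, in either direction, rose in these settings too. They were 1233 of 19938 in the main fit, 2261 of 19938 with the trend and 2064 of 9969 above the median. Requiring a fold of at least 1.5 left 1 higher gene, Elovl6, and 0 lower. The robust prior and the other settings kept both counts within 1 of the values given. The median difference of the sterol genes, 0.0108, became -0.0201 after a second quantile normalization and ranged from -0.0170 to 0.0261 as arrays were left out; that of the fatty acid genes, 0.0265, became 0.0038 and ranged from 0.0031 to 0.0381. With each array centred on its median they were 0.028 and 0.0437. The cause of these shifts was not tested. A total of 7 uncalled genes near 0 changed sign. After a second quantile normalization Mvk was at -0.0058, Hsd17b7 at -0.0098, Sc5d at -0.0090, Dhcr7 at -0.0203 and Stard4 at -0.0200. With array weights Mvk was at -0.0118, Cyp51 at -0.0058, Dhcr7 at -0.0130 and Stard4 at -0.0053, and with each array centred on its median Mvd was at 0.0171. As arrays were left out, Cyp51 ranged from -0.0212 to 0.0461, Dhcr7 from -0.0135 to 0.0306, Hsd17b7 from -0.0121 to 0.0465, Mvd from -0.0543 to 0.0287, Mvk from -0.0384 to 0.0578, Sc5d from -0.0042 to 0.0452 and Stard4 from -0.0170 to 0.0605.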
